A study of Mus musculus with 208 samples.

Results

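The 28 genes described here make, sense and clear cholesterol, and they were taken by symbol from the 39179 gene IDs of the deposited tables. No cut on their values was used, but the list was chosen with earlier results of these data known. Of the 28 genes, 19 encode enzymes of cholesterol synthesis and its prenyl branch, from Acat2 to Dhcr7 and Ggps1. The other 9 encode regulators (Insig1, Insig2, Srebf1, Srebf2, Scap), a sterol carrier (Stard4), exporters (Abca1, Abcg1) and the enzyme that opens the brain's route of cholesterol removal (Cyp46a1). All 28 passed the filter on low counts at every age, so each was tested in each comparison.

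The brain makes nearly all of its own cholesterol, because lipoprotein cholesterol does not cross the blood-brain barrier in bulk. Astrocytes and myelin-forming oligodendrocytes carry most of the synthesis in adults, while neurons remove the surplus through CYP46A1, which turns cholesterol into 24S-hydroxycholesterol. When sterols are scarce, SCAP escorts the membrane-bound SREBP proteins to the Golgi apparatus, where they are cut to release transcription factors that switch on the synthesis genes. INSIG proteins hold SCAP back when sterols are plentiful, and Insig1 is itself a target of the SREBP proteins. In Huntington disease, reduced brain cholesterol synthesis and turnover have been a subject of long-standing work.

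Striatal polyadenylated RNA was sequenced in C57BL/6 mice that were heterozygous for a knock-in Htt allele, or wild type. The 6 knock-in lines are named by nominal CAG repeat length, and Q20, whose repeat is short, was the reference for Q80, Q92, Q111, Q140 and Q175. Each line was sampled at 2, 6 and 10 months with 8 mice per group, about equally male and female, which gave 144 knock-in libraries. Another 64 libraries came from wild types. For every line, 8 wild-type cage mates were sampled at 6 months, whereas those of 2 and 10 months shared cages with Q20 only. The tissue is a mixture of cells, so fewer cells of a type and less RNA per cell cannot be told apart. Replicates are named F or M for their sex, with a number.

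Total counts ran from 29.1 to 49.5 M per library. Of the 56 libraries at 2 months, 7 held 17.2 to 24.1% mitochondrial counts against at most 14.9% in the others, and 2 of the 7 belong to Q20 (M2 and M3). At the same age a Q80 library labelled male, M3, had no counts on 4 Y-linked genes. At 6 months Q20 M4 held pituitary hormone transcripts (94.5 CPM, the TMM-scaled count at a common library total, against a median of 1.21), Q92 F2 held markers of cortical neurons and Q80 F3 markers of choroid plexus. Pituitary transcripts were also high in Q20 F4 (309.1 CPM) and a wild type, M1 (185.0 CPM), at 2 months, and in M4 of the wild types housed with Q92 (146.8 CPM) and F2 of those housed with Q140 (81.88 CPM) at 6 months. Choroid plexus markers were high in M2 of the wild types housed with Q80 (5835 CPM) and, at lower levels, in Q175 F3 at 2 months and Q140 M2 at 6 months. Without these 10 libraries all 12 calls in Q175 against Q20 at 6 months held. The 12 markers of medium spiny neurons, the principal neurons of the striatum, summed to 9275 to 11040 CPM in Q20 at 6 months, with none at 0.

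The promoters of 4 genes are shown because these genes differ in their response below. Hmgcs1 holds a match to the sterol element core searched here, Msmo1 and Insig1 fell furthest among enzymes and regulators in Q175 at 6 months, and Mvk rose. Each window holds 300 bases, 250 before and 50 after the RefSeq start site on GRCm38.p6, read 5′ to 3′ on the gene's strand. Capitals mark the sterol regulatory element core TCACNCCAC and the CCAAT box, the site of NF-Y, which appears as ATTGG when it lies on the other strand. Both strands were searched, and the motifs do not overlap in these windows.
Hmgcs1 (chr13:119690101-119690400, plus strand): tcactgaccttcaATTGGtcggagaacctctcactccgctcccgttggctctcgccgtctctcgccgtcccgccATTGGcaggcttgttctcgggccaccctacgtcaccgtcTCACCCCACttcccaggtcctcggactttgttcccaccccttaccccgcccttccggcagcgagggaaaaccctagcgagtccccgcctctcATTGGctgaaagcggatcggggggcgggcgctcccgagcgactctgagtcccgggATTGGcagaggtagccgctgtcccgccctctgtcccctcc
Msmo1 (chr8:64733529-64733828, minus strand): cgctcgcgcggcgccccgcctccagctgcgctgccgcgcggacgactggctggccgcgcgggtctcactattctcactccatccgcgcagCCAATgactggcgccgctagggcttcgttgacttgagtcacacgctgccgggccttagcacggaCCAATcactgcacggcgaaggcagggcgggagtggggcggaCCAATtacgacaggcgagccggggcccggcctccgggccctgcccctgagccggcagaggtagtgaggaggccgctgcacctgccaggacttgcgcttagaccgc
Insig1 (chr5:28071162-28071461, plus strand): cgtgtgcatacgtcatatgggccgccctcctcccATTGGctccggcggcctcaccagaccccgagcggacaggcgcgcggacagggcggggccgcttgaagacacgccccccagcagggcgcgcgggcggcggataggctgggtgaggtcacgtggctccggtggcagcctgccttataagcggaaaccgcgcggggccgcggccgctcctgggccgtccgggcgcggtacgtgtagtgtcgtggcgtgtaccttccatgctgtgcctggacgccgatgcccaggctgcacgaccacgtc
Mvk (chr5:114444019-114444318, plus strand): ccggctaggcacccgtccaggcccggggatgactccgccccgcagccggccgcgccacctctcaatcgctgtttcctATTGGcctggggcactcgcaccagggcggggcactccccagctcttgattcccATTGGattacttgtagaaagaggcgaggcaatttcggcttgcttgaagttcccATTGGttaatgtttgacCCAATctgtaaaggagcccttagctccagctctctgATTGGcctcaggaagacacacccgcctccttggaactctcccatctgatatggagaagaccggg
A window was found for 23 of the 28 genes. The CCAAT box occurred in 20 of the 23, in 15 of 16 synthesis genes and 5 of 7 regulatory genes, against 41.1% of the 27025 genes with a window. TCACNCCAC occurred only in Hmgcs1 among the 23, at 137 bases before the start, against 1.44% of genes. Mvk, which rose, holds 5 CCAAT matches, and Insig1, which fell, holds 1. Such matches describe the letters in these windows and say nothing of binding. Other forms of the sterol element, and sites outside the windows, were not searched.

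Levels of different genes were compared in FPKM, which allow for transcript length. In Q20 at 6 months Cyp46a1 was the highest of the 28 at 120.7 ± 3.98 FPKM (SD, n = 8), and its range of mean ± SD did not meet that of the next gene. Hmgcs1, which makes HMG-CoA, followed at 45.2 ± 4.01 FPKM and Srebf2, which encodes SREBP-2, at 43.2 ± 2.41 FPKM, with ranges that met. Msmo1, the sterol C4-methyl oxidase, stood next at 31.6 ± 2.89 FPKM, and Srebf1 at 27.9 ± 1.62 FPKM. The lowest were Stard4, at 4.65 ± 0.402 FPKM, and Hsd17b7, at 3.89 ± 0.384 FPKM. Ranges of mean ± SD also stayed apart between Srebf2 and Msmo1, Srebf1 and Abcg1, Acat2 and Sc5d, Pmvk and Idi1, and Ebp and Stard4, and they met between all other neighbours in the order.

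In Q175 at 6 months, levels of several synthesis genes and of the master regulator Srebf2 were lower than in Q20, while 3 genes were higher. Of the 28 genes, 12 changed at an adjusted p under 0.05 in edgeR's quasi-likelihood test, 3 upward and 9 downward, against 36.2% of all 17642 genes tested (18% higher and 18.2% lower). The share of these genes that changed was therefore close to the background, with more of the calls downward. Among the 19 enzymes 2 rose and 5 fell, and among the 9 regulatory genes 1 rose and 4 fell. The median log2 fold change of the 28 was -0.05, beside 0.01 over all genes, and the median size of change was 0.10, beside 0.12. With limma on log2(FPKM + 1), which changes the unit, the filter and the test together, 7 of the 28 rose and 6 fell, and 5469 of the 7224 genes called overall were higher. The calls for Cyp51, Mvd and Stard4 were lost in limma, while Abca1, Ebp, Fdps and Insig2 were gained. Mvd was also lost in edgeR with wild types as the reference, and Stard4 with no filter on low counts. With RLE factors in place of TMM in edgeR, and in DESeq2, the split stayed at 3 and 9. The plot of the Q175 differences by age gives all 28 values.

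**Figure D1:**
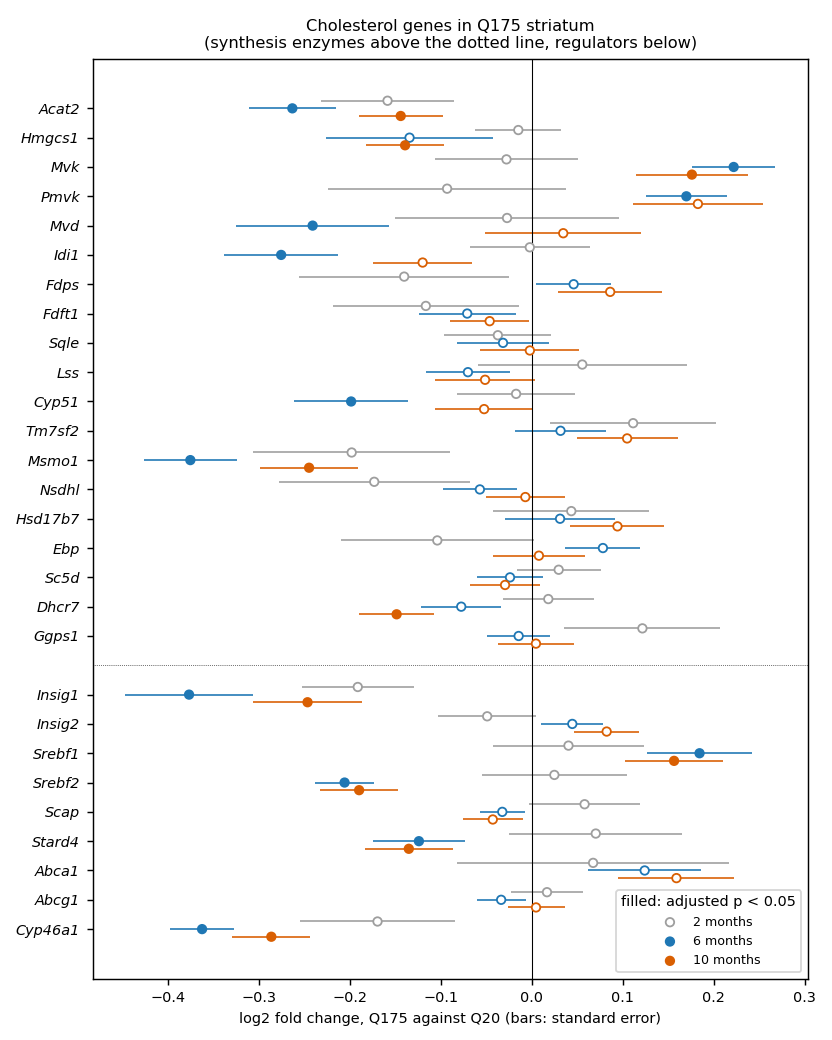
Log2 fold change of Q175 against Q20 for each gene (horizontal axis, with bars of 1 standard error) at 2, 6 and 10 months, with 8 libraries per group. Filled points passed an adjusted p of 0.05 in edgeR: none at 2 months, 12 at 6 months and 10 at 10 months.

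The first steps of the mevalonate part moved in different directions. Acat2 (ENSMUSG00000023832), the cytosolic thiolase that joins acetyl-CoA units, had 35.2, 41.1 and 43.0 CPM (lowest, median, highest) in Q20 at 6 months and 32.1, 33.5 and 34.9 CPM in Q175. The 2 groups did not overlap. Acat2 fell by 16.7% (log2 -0.26, SE 0.048, adjusted p = 4.61e-06, edgeR). The mouse genome holds a near-identical copy, Acat3, so reads may have been split between them. Hmgcs1 ran from 128 to 173 CPM in Q20, with a median of 147.7, and from 122 to 173 CPM in Q175, with a median of 127.7. Of the 8 Q175 libraries 4 lay below every Q20 library, while F3 stood far above the other 7 of its group. Its difference at 6 months did not pass (log2 -0.13, SE 0.092, adjusted p = 0.265, edgeR).

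The next kinases rose. Mvk (ENSMUSG00000041939), mevalonate kinase, had 11.6, 13.1 and 13.7 CPM in Q20 and 13.6, 15.2 and 16.6 CPM in Q175, so that the lowest Q175 library lay just under the highest of Q20. It rose by 16.6% (log2 0.22, SE 0.046, adjusted p = 4.21e-05, edgeR). Pmvk, the following kinase, had 16.9, 18.9 and 19.7 CPM in Q20 and 19.3, 21.2 and 22.3 CPM in Q175. It rose by 12.5% (adjusted p = 0.00121, edgeR).

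The enzymes that come after them fell. Mvd, the decarboxylase that yields isopentenyl diphosphate, fell by 15.4% (log2 -0.24, SE 0.084, adjusted p = 0.0181, edgeR), with 12.01 to 15.72 CPM in Q20 and 9.95 to 12.8 CPM in Q175. Idi1, the isomerase that balances the isoprenoid building blocks, had 28.8, 38.1 and 47.9 CPM in Q20 and 27.4, 30.4 and 35.3 CPM in Q175. The median of Q175 lay just above the lowest Q20 library, F1, and Idi1 fell by 17.4% (log2 -0.28, SE 0.063, adjusted p = 2.10e-04, edgeR). Fdps and Ggps1, which build the farnesyl and geranylgeranyl chains, differed by 0.05 (SE 0.041) and -0.01 (SE 0.035) on the log2 scale and did not pass.

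Of the 11 enzymes from squalene to cholesterol, 2 fell in Q175 at 6 months and none rose, beside 18.2% of all genes lower and 18% higher. Msmo1 (ENSMUSG00000031604) removes the methyl groups at carbon 4 of the sterol. Its levels were 57.6, 63.5 and 76.2 CPM in Q20 and 44.5, 49.9 and 52.1 CPM in Q175. Every Q175 library lay under every Q20 library. Msmo1 fell by 22.9% (log2 -0.38, SE 0.051, adjusted p = 3.09e-09, edgeR). Cyp51, lanosterol demethylase, acts earlier, with the C14 reductase step between them, and fell by 12.8% (log2 -0.20, SE 0.063, adjusted p = 0.00862, edgeR), from a median of 45.5 CPM (35.4 to 53.5) to 38.5 CPM (36.1 to 43.6). The Cyp51 groups overlapped widely, since Q20 F1 lay below all Q175 libraries.

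The other 9 of these enzymes differed by -0.08 to 0.08 on the log2 scale, and none passed. They include Sqle, squalene epoxidase, a rate-controlling step, at 31.5 CPM (28.6 to 33.7) in Q20 and 30.2 CPM (28.9 to 34.5) in Q175, given as median and range. Dhcr7, which makes cholesterol in the last step of its branch, had medians of 26.2 and 24.7 CPM. Fdft1, which commits carbon to squalene, had 59.6 and 57.3 CPM. The steps that fell were thus next to steps with no detectable difference at this replication. As an FPKM sum, the 19 enzymes ran from 261.5 to 305.8 in Q20 at 6 months, with a median of 279.2. In Q175 the sum ran from 263.1 to 287.7, with a median of 277.7. The highly expressed genes carry most weight in it. These FPKM were not scaled by TMM. Over the 13966 genes tested in limma, the median log2(FPKM + 1) difference of Q175 from Q20 was 0.07, beside 0.01 in edgeR.

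Among the regulators, Srebf2 fell and Srebf1 rose. Srebf2 (ENSMUSG00000022463) encodes the SREBP that chiefly drives cholesterol synthesis, and had 200.1, 217.6 and 240.0 CPM in Q20 at 6 months and 173.5, 189.4 and 205.8 CPM in Q175. The groups overlapped only at their edges, and Srebf2 fell by 13.3% (log2 -0.21, SE 0.032, adjusted p = 1.15e-07, edgeR). Srebf1, whose main product drives fatty acid genes, had 86.1, 94.2 and 101.4 CPM in Q20 and 96.7, 105.1 and 125.6 CPM in Q175. It rose by 13.7% (log2 0.18, SE 0.057, adjusted p = 0.00723, edgeR). Scap, the escort of the SREBP proteins, differed by -0.03 on the log2 scale (SE 0.025) and did not pass.

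Insig1 (ENSMUSG00000045294), the sterol-responsive retention protein, had 53.4, 58.2 and 74.5 CPM in Q20 and 42.2, 45.3 and 50.9 CPM in Q175, with no overlap. It fell by 23% (log2 -0.38, SE 0.070, adjusted p = 7.59e-06, edgeR). Its paralog Insig2, which is not induced by SREBP-2, had medians of 40.4 and 41.2 CPM and did not pass (log2 0.04, SE 0.034).

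In transport, efflux and turnover, 2 of 4 genes fell, beside 18.2% of all genes. Cyp46a1 (ENSMUSG00000021259), the cholesterol 24-hydroxylase of neurons, had 240.7, 261.9 and 268.8 CPM in Q20 at 6 months and 186.6, 198.6 and 218.0 CPM in Q175. The groups were fully apart, and Cyp46a1 fell by 22.2% (log2 -0.36, SE 0.036, adjusted p = 1.25e-14, edgeR), the smallest adjusted p among the 28. Stard4, a soluble sterol carrier, fell by 8.22% (log2 -0.12, SE 0.050, adjusted p = 0.0451, edgeR), with 20.0 to 24.8 CPM in Q20 and 19.7 to 22.9 CPM in Q175. That call was lost when any of 11 libraries was left out (Q175 F1, F3, F4, M3 or M4, or Q20 F1, F2, F3, M1, M2 or M3), with adjusted p up to 0.121 (edgeR). Abca1 and Abcg1, exporters that answer to oxysterols through the LXR receptors, did not pass, with log2 differences of 0.12 (SE 0.062) and -0.03 (SE 0.027).

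**Figure D2:**
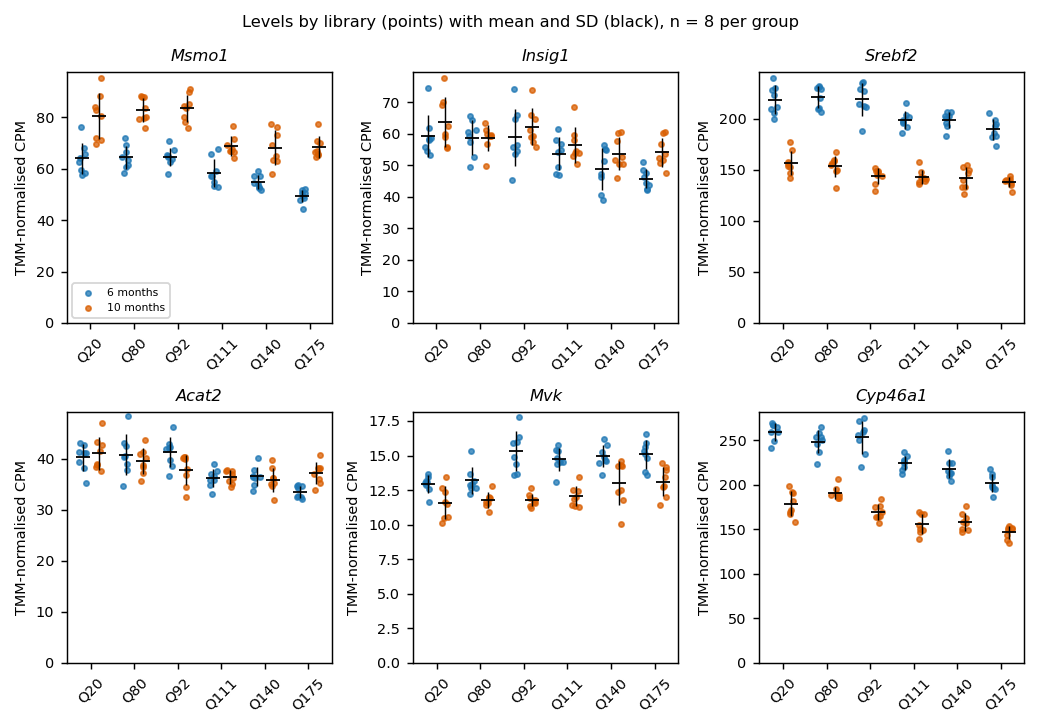
TMM-scaled CPM of 6 genes in each knock-in library at 6 and 10 months (points), by line, with the mean and SD of 8 libraries in black and axes from 0. At 6 months the Q175 points of Msmo1, Insig1, Acat2 and Cyp46a1 lie below all Q20 points, and those of Mvk overlap with Q20 only at their edge.

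At 10 months 10 of the 28 genes differed between Q175 and Q20, 2 higher and 8 lower, against 24.5% of the 17170 genes tested (12.4% higher and 12.1% lower). Of the 12 genes called at 6 months, 8 were called again in the same direction, which is 66.7% of the first list and 80% of the second. How many of all genes called at 6 months were called again was not counted, so these shares have no background beside them. The 8 genes were Acat2, Mvk and Msmo1 among the enzymes and Insig1, Srebf1, Srebf2, Stard4 and Cyp46a1 among the regulatory genes. With limma on log2(FPKM + 1) the split at 10 months was 7 higher and 4 lower, and the calls for Acat2, Hmgcs1, Dhcr7 and Stard4 were lost. The matching limma split over all genes is not given here. RLE factors and DESeq2 both gave 2 higher and 8 lower.

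Msmo1 at 10 months had 69.8, 81.7 and 95.2 CPM in Q20 and 64.7, 66.7 and 77.4 CPM in Q175. Of the 8 Q175 libraries 5 lay below every Q20 library, the highest was M4, and Msmo1 fell by 15.6% (log2 -0.24, SE 0.053, adjusted p = 3.96e-04, edgeR). Insig1 had 55.3, 61.3 and 77.7 CPM in Q20 and 47.5, 53.0 and 60.5 CPM in Q175, and fell by 15.7% (adjusted p = 0.00146, edgeR). Cyp46a1, with 158.2, 176.8 and 198.4 CPM in Q20 and 134.8, 149.8 and 153.7 CPM in Q175, again showed no overlap and fell by 18% (adjusted p = 5.49e-07, edgeR). Srebf2 fell by 12.3% (adjusted p = 6.19e-04, edgeR), from a median of 154.4 CPM to 138.9 CPM.

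The other calls at 10 months had larger adjusted p, and some were lost when a single library was left out. Hmgcs1 fell by 9.19% (adjusted p = 0.0131, edgeR), with 151.6 to 183.9 CPM in Q20 and 133.8 to 158.2 CPM in Q175. Dhcr7 fell by 9.77% (adjusted p = 0.00536, edgeR). Both calls held without any single library (adjusted p up to 0.044 for Hmgcs1 and 0.022 for Dhcr7, edgeR). Hmgcs1 was lost with wild types as the reference. Acat2 fell by 9.49% (adjusted p = 0.0162, edgeR), a call lost without Q20 F3 (adjusted p = 0.0627). Mvk rose by 13% (adjusted p = 0.0279, edgeR), a call lost without any of Q175 F3, F4 or M3 or Q20 F5, M1 or M3 (adjusted p up to 0.0753). Srebf1 rose by 11.5% (adjusted p = 0.0269, edgeR), which was lost without Q175 M1, Q20 F2 or Q20 M3 (adjusted p up to 0.0704). Stard4 fell by 8.93% (adjusted p = 0.0343, edgeR), which was lost without Q175 F1, F4, M1 or M4 or Q20 F3 or M3 (adjusted p up to 0.1015). Pmvk and Abca1 missed the threshold, at log2 differences of 0.18 (adjusted p = 0.0545, edgeR) and 0.16 (adjusted p = 0.0598, edgeR).

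At 2 months none of the 28 genes passed in any line. In edgeR the share of all 17006 genes called against Q20 was 0.0118% for Q80, 0% for both Q92 and Q140, 0.0176% for Q111 and 0.218% for Q175, and DESeq2 and limma also called none of the 28. At an unadjusted p under 0.05 edgeR picked Insig1 in each of the 5 lines, and Acat2 in Q175 as well. Over all genes the same cut picked from 216 (Q92) to 967 (Q175). The 5 lines share the same 8 Q20 libraries. Insig1 had 61.5, 65.5 and 76.9 CPM in Q20 and 51.2, 57.8 and 69.5 CPM in Q175 at this age (log2 -0.19, SE 0.061, unadjusted p = 0.00306, adjusted p = 0.363, edgeR). Its log2 difference was -0.26 for Q80, -0.13 for Q92, -0.19 for Q111 and -0.16 for Q140. Against wild type at 2 months, Q20 itself differed in Insig1 by 0.07 (SE 0.061), where 0% of genes were called. None of the 28 was called without the 7 libraries rich in mitochondrial counts either, when 84 genes were called in Q175 and Insig1 gave -0.16 (SE 0.065, adjusted p = 0.293, edgeR).

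The lines between Q20 and Q175 showed part of the same changes, as the heat map by line and age shows. At 6 months 6 of the 28 genes changed in Q140, 1 higher and 5 lower (27.9% of all genes), 4 in Q111 (12.8%), 2 in Q92 (5.99%) and 0 in Q80 (0.289%). At 10 months 10 changed in Q140, 3 higher and 7 lower (22.5% of all genes), 7 in Q111, 1 higher and 6 lower (12.5%), 0 in Q92 (1.12%) and 0 in Q80 (0.122%). For the counts of 0, an unadjusted p under 0.05 in edgeR picked 1 gene in Q80 at 6 months, 7 in Q80 at 10 months and 5 in Q92 at 10 months. Over all genes the same cut picked 1980 of 17642, 3503 of 17170 and 2248 of 17170 in that order. DESeq2 called Lss and Abca1 in Q80 at 10 months and none in the other 2 comparisons, and limma called none in the 3. All these comparisons share the Q20 libraries.

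**Figure D3:**
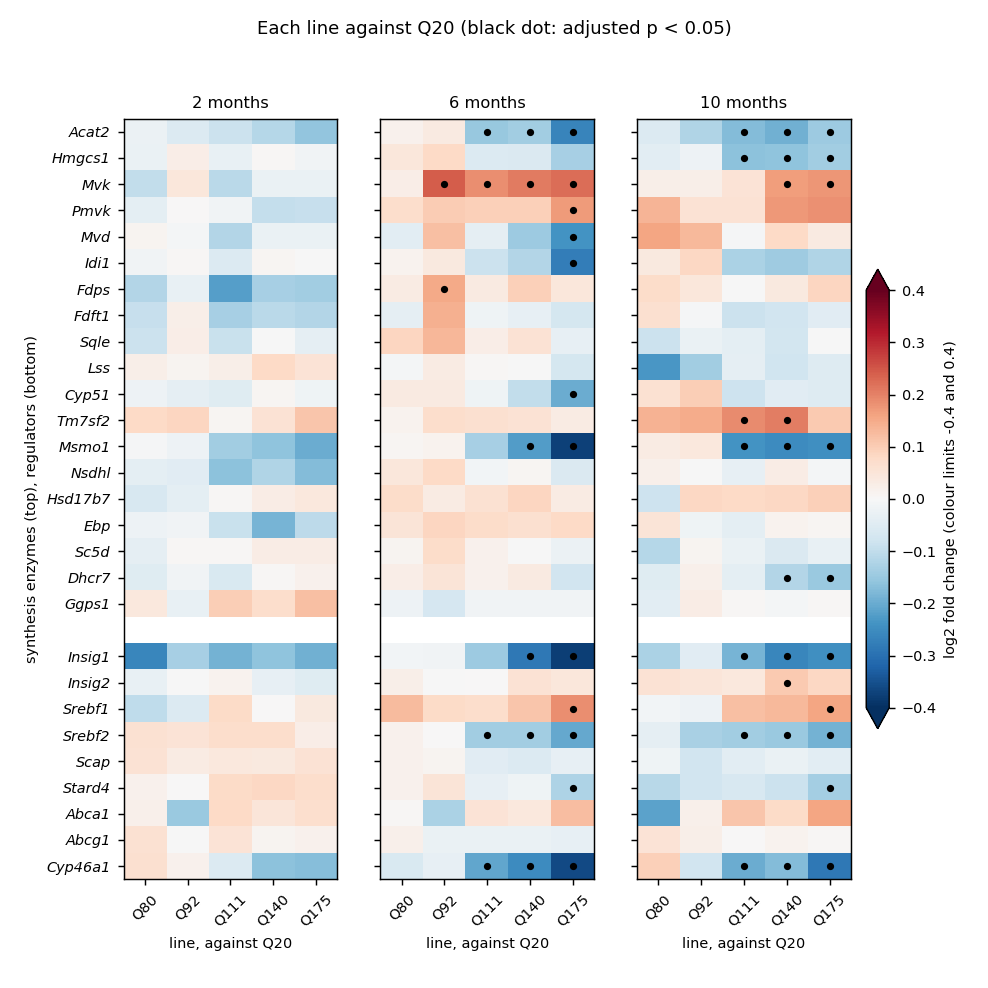
Log2 fold change of each gene (rows, enzymes above and regulatory genes below) in each line against Q20 (columns) at 2, 6 and 10 months, coloured from -0.4 to 0.4. Black dots mark an adjusted p under 0.05 in edgeR, and they gather in Q111, Q140 and Q175 at 6 and 10 months.

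Cyp46a1 fell in Q111 (log2 -0.21, adjusted p = 5.44e-06, edgeR) and in Q140 (log2 -0.25, adjusted p = 1.42e-08, edgeR) at 6 months. Median levels were 261.9 CPM in Q20, 257.7 CPM in Q92, 225.2 CPM in Q111, 214.5 CPM in Q140 and 198.6 CPM in Q175. The Q111 and Q140 libraries did not overlap with Q20, while those of Q92 did. Srebf2 fell by 0.14 on the log2 scale in both Q111 and Q140 (adjusted p = 0.00103 and 4.25e-04, edgeR), with medians of 197.6 and 201.3 CPM.

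Msmo1 and Insig1 passed in Q140 but not in Q111 at 6 months, where Msmo1 passed without the 10 libraries with other tissue. Msmo1 fell by 0.22 on the log2 scale in Q140 (adjusted p = 3.92e-04, edgeR), with medians of 63.5 CPM in Q20, 57.1 CPM in Q111 and 54.3 CPM in Q140. Insig1 fell by 0.28 in Q140 (adjusted p = 9.58e-04, edgeR), with medians of 58.2, 54.6 and 49.4 CPM in the same order. At 10 months both passed in Q111 as well, Msmo1 at -0.24 (adjusted p = 0.00104, edgeR) and Insig1 at -0.18 (adjusted p = 0.0302, edgeR). Tm7sf2, the sterol C14 reductase, rose at 10 months in Q111 by 0.19 (adjusted p = 0.0152, edgeR) and in Q140 by 0.20 (adjusted p = 0.00501, edgeR), and differed by 0.11 in Q175 without passing (SE 0.055).

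In Q92 both calls at 6 months were upward: Mvk by 0.24 (adjusted p = 5.57e-04, edgeR), also called higher in Q111, Q140 and Q175, and Fdps by 0.15 (adjusted p = 0.0166, edgeR). Fdps was not called when Q20 M4, Q92 F2 and Q80 F3 were left out together, nor without the 10 libraries with markers of other tissue (adjusted p = 0.1415, edgeR), and 1 of the 28 was then called. Against its own cage mates Q92 differed in Mvk by 0.02 (SE 0.046), because the wild types housed with Q92 were high too, at 15.1 ± 0.653 CPM (SD, n = 8) against means of 13.1 to 13.45 CPM in the other wild-type groups. Over the 15 comparisons of a line with Q20, 17 of the 28 genes passed at least once and none passed in opposite directions. The matching shares of all genes were not counted, but 36.2% of all genes were called in Q175 at 6 months alone. Comparisons of the same age also share the Q20 libraries. Those that never passed were 8 enzymes (Fdft1, Sqle, Lss, Nsdhl, Hsd17b7, Ebp, Sc5d and Ggps1) and Scap, Abca1 and Abcg1.

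Fitted as a straight line through the 6 lines (log2 units for every 10 CAG repeats), the trend gave 12 of the 28 genes at 6 months, 3 upward and 9 downward, against 39.9% of 17370 genes (20.3% upward and 19.6% downward). At 10 months it gave 14, with 5 upward and 9 downward, against 32.8% of 17108 genes (15.9% and 16.9%). At 2 months it gave 0 (0.354% of 16947 genes), as did DESeq2 and limma. An unadjusted p under 0.05 in edgeR picked 4 of the 28 and 1574 of all genes. The steepest slopes at 6 months were -0.027 for Insig1 (SE 0.0046), -0.026 for Msmo1 (SE 0.0035) and -0.025 for Cyp46a1 (SE 0.0026). The p of a trend does not measure the spread between lines, since each repeat length is 1 line. With limma on log2(FPKM + 1) the splits were 7 upward and 6 downward at 6 months and 8 and 6 at 10 months. Without the Q175 libraries 6 genes at 6 months and 8 at 10 months passed. For the limma fits and the fits without Q175, the matching shares of all genes are not given here.

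Wild-type cage mates gave a reference at 6 months that shares no library with Q20. Against them 11 of the 28 genes changed in Q175, 4 higher and 7 lower, where 31.8% of all genes did (15.7% higher and 16.1% lower). Both comparisons use the same 8 Q175 libraries. Cyp51 and Mvd passed against Q20 and not against the cage mates, and Abca1 passed against the cage mates and not against Q20. Msmo1 had 58.5, 60.6 and 63.8 CPM in the cage mates, above every Q175 library, and fell by 19.1% in Q175 relative to them (log2 -0.30, SE 0.051, adjusted p = 9.25e-07, edgeR). Insig1 fell by 18.5% (adjusted p = 4.78e-04, edgeR), with cage mates at 52.1 to 60.1 CPM, again above every Q175 library. Cyp46a1 gave -0.36 against either reference. Abca1 rose by 11.4% (adjusted p = 0.0458, edgeR), a call lost with RLE factors (adjusted p = 0.0502, edgeR), with no filter (adjusted p = 0.0652, edgeR) and without the wild types F4 and M4 housed with Q111 and M3 housed with Q175 (adjusted p = 0.0646, edgeR).

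**Figure D4:**
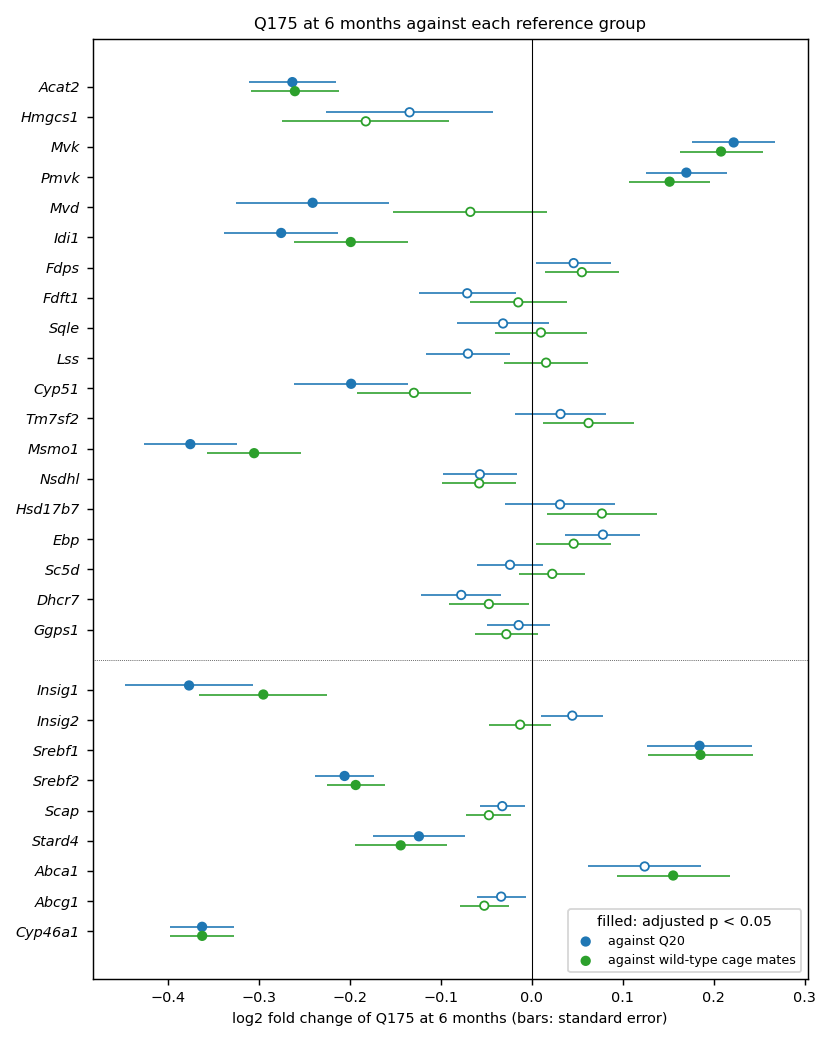
Log2 fold change of Q175 at 6 months against Q20 and against wild-type cage mates for each gene, with bars of 1 standard error and 8 libraries per group. Filled points passed an adjusted p of 0.05 in edgeR, 12 against Q20 and 11 against the cage mates.

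Against their own cage mates Q140 had 6 genes called (24.2% of all genes) and Q111 had 4 (8.94%). No gene was called in Q92 (0.051%), in Q80 (0.051%) or in Q20 (0.0227%). For these 3, DESeq2 and limma called none of the 28 either, and an unadjusted p under 0.05 in edgeR picked only Ggps1, in Q92. In Q111 the call for Hmgcs1 (log2 -0.36, adjusted p = 0.00471, edgeR) came with 2 high wild-type libraries, F4 at 253.8 and M4 at 301.8 CPM, where the other 6 had 137.4 to 164.3 CPM. Without those 2 and M3 housed with Q175 the value was -0.09 (adjusted p = 0.445, edgeR). The 6 wild-type groups differed among themselves in 1 of the 28 genes, Mvk (adjusted p = 0.0234, edgeR), where 1.34% of all genes did. At 10 months Q20 against wild type gave 0 of the 28 (0.0116% of all genes), in DESeq2 and limma too, with Cyp46a1 alone at an unadjusted p under 0.05.

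The difference between Q175 and Q20 was itself compared between ages, in a fit of both ages. From 2 to 6 months it changed in 1 of the 28 genes, against 6.7% of 17839 genes: Srebf2, by -0.23 on the log2 scale (SE 0.076, adjusted p = 0.0444, edgeR). Srebf2 had 122.6, 166.6 and 182.7 CPM in Q20 and 146.3, 161.7 and 182.4 CPM in Q175 at 2 months, and the lowest of these, Q20 M2, is one of the libraries rich in mitochondrial counts.

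The Srebf2 call was lost under 6 of 9 alternatives. These were no filter on low counts (adjusted p = 0.0747, edgeR), 3 limma fits on FPKM (adjusted p up to 0.242), and leaving out the 10 libraries with other tissue (adjusted p = 0.0925, edgeR) or the libraries rich in mitochondrial counts. Without the 7 libraries rich in mitochondrial counts, the age difference of Srebf2 was -0.13 (SE 0.050, adjusted p = 0.0676, edgeR) and was no longer called. In their absence 5 other genes passed, all with a more negative Q175 difference at 6 months than at 2 months, where 12.4% of 17920 genes were called and 7.82% were called lower. These were Cyp46a1 (-0.32, SE 0.060, adjusted p = 5.58e-05), Msmo1 (-0.35, SE 0.077, adjusted p = 6.06e-04), Idi1 (-0.34, SE 0.092, adjusted p = 0.00555), Acat2 (-0.24, SE 0.069, adjusted p = 0.00965) and Mvd (-0.38, SE 0.13, adjusted p = 0.0392), all in edgeR. At 2 months alone, without these libraries, Msmo1 differed by -0.03 (SE 0.055) and Cyp46a1 by -0.05 (SE 0.050) between Q175 and Q20. From 6 to 10 months none of the 28 changed in edgeR, DESeq2 or limma, against 0.0448% of 17856 genes, with Mvd alone at an unadjusted p under 0.05 in edgeR.

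The Q175 difference was compared between males and females in each age with 4 mice per sex and group, except in Q20 at 10 months (5 females and 3 males). edgeR called 0 of the 28 genes at each age, beside 0% of all genes at 2 months, 0% at 6 and 0% at 10 months, and neither DESeq2 nor limma called any of the 28. At an unadjusted p under 0.05 edgeR picked Hsd17b7 at 2 months and none of the 28 at 6 and 10 months.

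Neighbouring genes, from 5 lists, changed in both directions, and their counts are to be read against 36.2% of all genes called at 6 months and 24.5% at 10 months. Of 8 genes that process or degrade the SREBP machinery, 2 rose and 2 fell in Q175 at 6 months. Mbtps1, the Golgi protease that makes the first cut in SREBP proteins, fell by 0.38 on the log2 scale (SE 0.038, adjusted p = 3.41e-14, edgeR), and by 0.30 at 10 months (SE 0.047). Erlin1, which restrains SREBP activation from the endoplasmic reticulum, fell by 0.34 (SE 0.055). Mbtps2, the protease of the second cut, rose by 0.17 (SE 0.037).

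Of 12 fatty acid synthesis genes under SREBP control, 2 rose and 4 fell at 6 months, and 0 rose and 5 fell at 10 months. Fads1, a fatty acid desaturase, fell by 0.16 (SE 0.023) at 6 months and by 0.27 (SE 0.028) at 10 months. Acaca, acetyl-CoA carboxylase, rose by 0.14 (SE 0.032) and Acly, which supplies cytosolic acetyl-CoA, fell by 0.11 (SE 0.027) at 6 months. Scd2, a stearoyl-CoA desaturase, fell by 0.20 and Fads2 by 0.26 at 10 months.

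Of 12 genes of sterol uptake, storage and transport, 2 rose and 2 fell at 6 months and 2 fell at 10 months. Lcat, which esterifies cholesterol on lipoproteins, fell by 0.20 (SE 0.058) and then by 0.37 (SE 0.088). Osbp, an oxysterol-binding protein, fell by 0.15 and Abca2 rose by 0.22 at 6 months. Of 5 oxysterol receptor genes 2 rose and 1 fell at 6 months: Nr1h3 (LXR-alpha) rose by 0.27 (SE 0.076), Nr1h2 (LXR-beta) rose by 0.09 and Rxrb fell by 0.18. Of 8 genes of the isoprenoid branch 3 rose and 1 fell, and Nus1, a subunit of the dolichol-making enzyme, fell by 0.26 while its partner Dhdds rose by 0.15. None of the genes in these lists was called in Q175 at 2 months by edgeR.

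Markers of the cell types that make and clear cholesterol moved in the same comparisons, in which 18.2% of all genes were called lower at 6 months and 12.1% at 10 months. At 6 months 5 of 12 oligodendrocyte markers were lower in Q175 and none higher, and their summed level ran from 9935 to 12200 CPM in Q20 and from 8796 to 10750 CPM in Q175. Of 12 astrocyte markers 5 were lower and none higher, with summed levels of 4939 to 5672 and 4214 to 4658 CPM that did not overlap. Of 12 medium spiny neuron markers 11 were lower, and their sum ran from 4882 to 5650 CPM in Q175, against 9275 to 11040 CPM in Q20. Endothelial markers were lower in 5 of 8 and microglial markers in 2 of 8, while of 6 oligodendrocyte precursor markers 1 was higher. None of the cortical or choroid plexus markers changed, and no marker of these lists was at 0.

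At 10 months 6 of 12 oligodendrocyte markers were lower and 2 higher, 8 of 12 astrocyte markers were lower and 1 higher, and 11 of 12 medium spiny neuron markers were lower. The part of these shifts in the levels of the cholesterol genes was not tested.

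**Figure D5:**
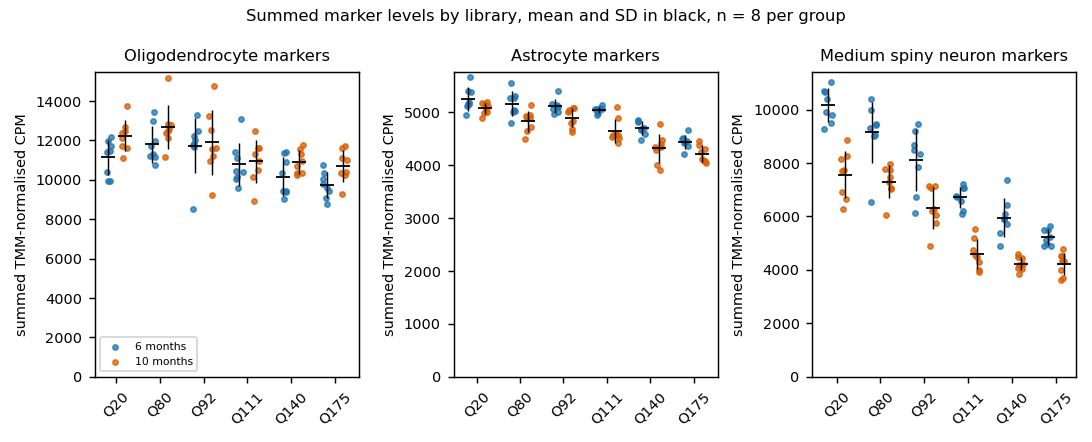
Summed TMM-scaled CPM of 12 oligodendrocyte, 12 astrocyte and 12 medium spiny neuron markers in each knock-in library at 6 and 10 months (points), by line, with the mean and SD of 8 libraries in black. The astrocyte and neuron sums of Q175 lie below those of Q20 in every library at 6 months, and the oligodendrocyte sums overlap.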

How the data were processed

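The authors deposited 2 tables for the same 208 libraries and 39179 gene IDs. The deposited expected counts are estimated reads per gene, and 32.7% of the values above 0 are not whole, so they were rounded before testing. The deposited FPKM values are scaled by the authors to depth and transcript length. CASAVA 1.8.2 is named in the submitters' processing notes. The aligner, like the build, was not given in the sources used here. Symbols were matched for 37607 IDs.

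Each age was fitted on its own in edgeR 4.0.16 (R 4.3.3): filterByExpr (min.count 10, min.total.count 15), TMM scaling, 1 term per group, sex as a covariate and robust quasi-likelihood F tests. The Benjamini-Hochberg adjustment ran over all genes tested, with a threshold of 0.05. Standard errors are the absolute log2 fold change divided by the root of F. CPM refer to the TMM-scaled library and are not compared across ages. The age difference was fitted on 2 ages at once, and the trend on the knock-in libraries of an age. Depth was 29.1 to 49.5 M counts per library, with medians of 31.9, 41.0 and 33.0 M at 2, 6 and 10 months. The sample titles give no more on the replicates than their numbers, and p-values measure the spread between these samples. Column names carry further codes whose meaning was not given, and no term was fitted for them. At 6 months the leading numbers of Q175, Q111 and Q20 run in separate blocks, each shared with the line's wild-type cage mates. The part of such blocks in the differences from Q20 was not tested. Arms of 8 were taken as separate libraries, since the lowest chi-square per gene over 728 pairs within groups was 3.71.

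The genes and lists were chosen with earlier results of these data known. Named are all 28 genes, and of each neighbouring list at most the 3 called genes with the smallest p per comparison, together with marker lists beside the results. Alternatives were DESeq2 1.42.0, RLE factors, no filter, limma 3.58.1 on log2(FPKM + 1) or + 0.1 with at least 1 FPKM in 8 libraries or no such filter, a replicate block, other reference or library choices, and leaving out each library of Q175 and Q20 in turn. Fits without 7 libraries rich in mitochondrial counts, without a Q80 library labelled male with no Y-linked counts, without 3 wild types high in Hmgcs1, and without 10 libraries with markers of other tissue were chosen after seeing the data. Promoter windows came from RefSeq on GRCm38.p6. Scripts were tested on simulated data. Figures were drawn with matplotlib 3.10.9.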

Additional observations from a re-analysis of the deposited data

Results flagged for a closer look

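In groups of 8, a library whose gap to its nearest neighbour was a large share of the group's range was picked out, with Dixon's criterion at its 95% critical value. By chance about 1 in 20 groups is picked, and 69 of the 728 combinations of gene and group were, 30 of them in the 7 libraries of 2 months that are rich in mitochondrial counts. Of the 196 combinations in Q20 and Q175 at each age and in the wild types housed with Q175, 9 were picked. Combinations picked in the other groups are not listed here. At 6 months Hmgcs1 reached 173 CPM in Q175 F3 (others 122 to 139 CPM) and 236 CPM in M3 of the wild types housed with Q175 (others 129 to 154 CPM). In Q20 at 6 months Insig1 reached 74.5 CPM in M2 (others 53.4 to 61.8 CPM), and Abcg1 reached 98.1 CPM in M4 (others 90.3 to 92.5 CPM), the library with pituitary hormone transcripts. At 10 months Msmo1 reached 77.4 CPM in Q175 M4 (others 64.7 to 70.7 CPM) and Ebp 15 CPM in the same library (others 12.4 to 13.4 CPM), while Cyp51 reached 54.8 CPM in Q20 M3 (others 38.9 to 46.2 CPM). At 2 months Srebf1 reached 77.5 CPM in Q20 M1 (others 50.9 to 63.2 CPM), and Nsdhl was low in Q175 M3 at 16.9 CPM (others 18.3 to 19.2 CPM).

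The Q175 difference of Srebf2 differed between ages by -0.23 on the log2 scale, 6 against 2 months, in the test of that difference (adjusted p = 0.0444, edgeR). It was -0.13 (adjusted p = 0.0676, edgeR) without the 7 libraries rich in mitochondrial counts, 2 of which are Q20, and the call was lost under 6 of 9 alternatives.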

How the results depend on the processing

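For the 99 values of single genes that were called in any comparison, 1362 values were computed under the alternatives. Of these 1200 kept their direction and their side of the threshold, 162 lost significance and 0 changed direction. Fits without the 7 libraries rich in mitochondrial counts, without the Q80 library lacking Y-linked counts, without the 3 wild types high in Hmgcs1 and without 10 libraries with other tissue were chosen after seeing the data.

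Counts of the 28 genes moved by over 1.5 times in these cases, and the cause was not tested where more than the number of samples changed. In Q92 at 6 months (2 called) limma with either pseudocount gave 4, wild types as the reference 4, only the 2 groups in the fit 1, and leaving out the 3 or the 10 libraries with other tissue 1. Over all genes the main fit called 1056 of 17642 in Q92, and limma on log2(FPKM + 1) called 1443 of 13966. Wild types as the reference called 1160 of 17642, only the 2 groups in the fit 100 of 16557. Leaving out the 3 libraries called 571 of 17678, and leaving out the 10 called 620 of 17652. In Q140 at 6 months (6) limma with either pseudocount gave 10. Over all genes limma on log2(FPKM + 1) called 5567 of 13966 in Q140, beside 4925 of 17642 in the main fit. At 10 months DESeq2 gave 2 in Q80 (0), wild types as the reference gave 1 in Q92 (0), and limma without a filter gave 4 in Q111 (7). Over all genes DESeq2 called 355 in Q80 at 10 months, beside 21 in edgeR. Without the Q175 libraries the trend gave 6 at 6 months (12) and 8 at 10 months (14). For the difference of the Q175 effect between 6 and 2 months (1), DESeq2 gave 3, RLE factors 2, no filter 0, leaving out the 10 libraries 0 and leaving out the 7 libraries 5. Over all genes the fit without the 7 libraries called 2227 of 17920, beside 1195 of 17839 with them. For the remaining settings in this paragraph the counts over all genes are not given. Beside these counts of the 28 genes and the 2 given below for the replicate block, counts of the 28 stayed within 1.5 times.

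Leaving out each library of Q175 and Q20 in turn gave 0 of the 28 at 2 months, 11 to 12 at 6 months and 8 to 11 at 10 months.

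Groups share replicate numbers but not animals. Deviations of same-numbered Q175 and Q20 libraries of a sex had mean correlations of -0.11 at 2, 0.07 at 6 and -0.01 at 10 months. Libraries with other numbers had means of -0.03, -0.05 and -0.03. Numbers correlated best with their own in 2 of 8 pairs at 2 months, 7 of 8 at 6 and 1 of 7 at 10 months. With the replicate block 3 genes passed in the age difference (1 without it) and 2 among the wild-type groups (1 without it). In Q175 the replicate block gave 12 of the 28 at 6 months and 8 at 10 months, where Mvk and Stard4 were lost.

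Replication limits the precision: with 8 libraries per group, standard errors of the 28 log2 differences between Q175 and Q20 at 6 months ran from 0.025 (Scap) to 0.092 (Hmgcs1), and at 2 months from 0.040 (Abcg1) to 0.15 (Abca1). The lowest level of any of the 28 genes in a library was 7.82 CPM (Mvd in Q80 F3 at 10 months).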

Other observations

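In some groups many enzymes shared their extreme library, seen after the values were known and given with no test. If the extremes fell evenly, each library of a group would be highest in 3.5 of the 28 genes. The libraries named here were picked for leading their group, so 3.5 is not the count to expect for them. In the wild types housed with Q140 at 6 months, M3 was highest in 16 of the 28, 14 of them enzymes, including Hmgcs1, Idi1, Sqle, Cyp51 and Msmo1. In Q175 at 10 months M4 was highest in 12, of which 11 were enzymes. In Q20 at 6 months F1 was lowest in 11, 9 of them enzymes, and M2 was highest in 9. In Q111 at 2 months F2, rich in mitochondrial counts, was highest in 15 genes and lowest in 11. These genes share the depth and scaling of their library.

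Summed over the 19 enzymes, FPKM at 6 months had a median of 271.0 in the wild types housed with Q175 (261.9 to 306.9), 300.4 in Q92 (277.9 to 340.0) and 304.4 in the wild types housed with Q92 (275.6 to 312.3). The Q92 line and its cage mates thus both lay above Q20 (279.2) and Q175 (277.7) in their medians, with overlapping ranges. These sums were not scaled by TMM.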
